A study of Drosophila melanogaster with 4 samples.

Results

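In ovaries of NSUN2 knockout flies, 96 of the 2860 listed genes were selected for more mRNA than in wild-type ovaries and for held footprints. Their ribosome footprints stood within about 1.5-fold of the wild-type value, after adding 1 to each value. The 96 genes were chosen by these same measured values: a log2 mRNA difference of at least 0.585 between NSUN2 KO and wild type (about 1.5-fold, after adding 1 to each value), and a log2 footprint difference of less than 0.585 in either direction. A value of at least 5 in 1 of the 2 genotypes was also required in each assay, which 2644 genes met and which all 96 met by the rule. Of the 98 genes past every cutoff, 2 were dropped by name. The mRNA and footprint differences of the 96 are therefore a description of what was selected, and no test was run on them.

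The material was Drosophila melanogaster ovary of strain W1118, either NSUN2 KO or wild-type. Footprints and poly(A)+ mRNA were each sequenced from 1 library per genotype, 4 libraries in all, and a difference between the genotypes can be checked in no replicate. The sources used here do not give how the knockout was made, or the age and number of flies behind a library. In whole ovaries, more cells of a type and more RNA per cell cannot be told apart.

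NSUN2 is an RNA methyltransferase that places 5-methylcytosine (m5C) on transfer RNAs and on some messenger RNAs. A ribosome shields a short stretch of message from nuclease, and these footprints report how many ribosomes sit on the messages of a gene. Footprints divided by mRNA give the ribosome load per message, usually called translation efficiency. The fly ovary holds germline nurse cells and oocytes, which load the egg with maternal messages that are often kept untranslated until later, and the somatic follicle cells around them.

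The deposited values are scaled to library depth and gene length, so levels of different genes can be set side by side within an assay. Whole reads behind the values were recovered from the ratios between libraries. The median listed gene had 2424 recovered mRNA reads in the knockout and 928 in wild type, and 305.5 recovered footprint reads in the knockout and 161.5 in wild type. For the 96 genes the medians were 1927.5 and 385.5 mRNA reads and 324 and 166 footprint reads, in knockout and wild type in that order. The lowest wild-type footprint count among them was 10 reads. The files pair no names with the identifiers, and none of the 96 was paired with a symbol in the reference table used, so the genes are given by FlyBase identifier without a role. The targeted gene was not matched to an identifier, so the knockout was not checked in these values.

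The gene with the largest mRNA difference was FBgn0036266, with an mRNA value of 23.8 in the knockout and 4.97 in wild type, 4.80-fold higher (95% counting interval 3.84 to 6.06). Its footprint value was 12.6 in the knockout and 12.4 in wild type, a fold of 1.02 (0.696 to 1.51). A gene with nearly 5 times the message thus had almost the same footprint value, although its 86 knockout and 42 wild-type footprint reads leave a wide interval. FBgn0031535 followed, with an mRNA value of 63.9 in the knockout and 15.9 in wild type and a footprint value of 170 in the knockout and 175 in wild type. With 768 knockout and 392 wild-type footprint reads, its footprint fold of 0.973 had an interval of 0.861 to 1.10, against an mRNA fold of 4.03 (3.43 to 4.75). This gene combined a large mRNA difference with a closely measured footprint value.

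FBgn0011802 had an mRNA value of 23.8 in the knockout and 6.28 in wild type, and a footprint value of 28.2 in the knockout and 20.1 in wild type. Its footprints were 1.40-fold higher (1.18 to 1.67), inside the band of the rule but above equality within counting error. FBgn0034599 had an mRNA value of 48.0 in the knockout and 14.4 in wild type, while its footprint value was 22.4 in the knockout and 26.5 in wild type. FBgn0038740 was the least abundant of the first 5, with an mRNA value of 8.27 in the knockout and 2.08 in wild type and a footprint value of 11.9 in the knockout and 8.17 in wild type. The first 5 genes thus held low and moderate messages, and their footprint values lay on both sides of the wild-type value. The footprint interval of FBgn0034599 (0.630 to 1.14) held equality, as did that of FBgn0031535, the other gene with a lower value. That of FBgn0038740 (1.06 to 2.05) lay above equality.

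**Figure D1:**
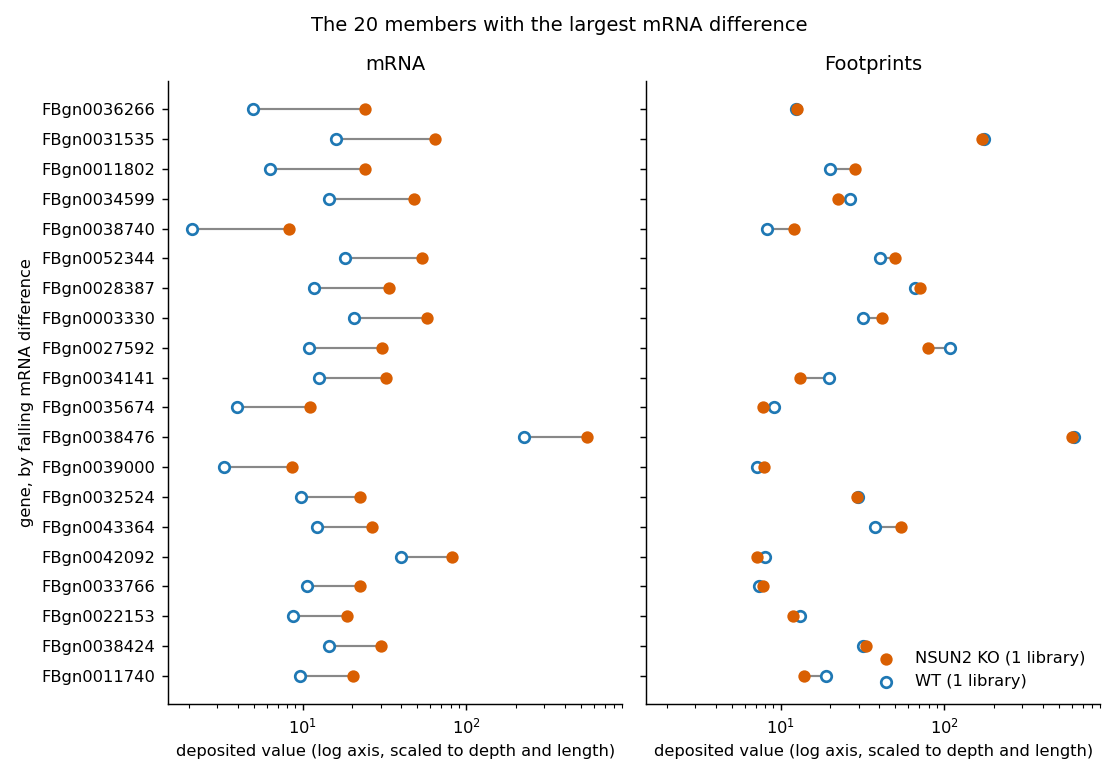
Deposited mRNA values (left panel) and footprint values (right panel) of the 20 genes with the largest log2 mRNA difference, on log axes, with filled points for the NSUN2 KO library and open points for the wild-type library. In mRNA each knockout point lies to the right of its wild-type point, as the selection required. In footprints the points of a pair lie in either order within the band that the selection also required. Their footprint folds run from 0.661 in FBgn0034141 to 1.46 in FBgn0038740.

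At least 2-fold higher mRNA, as a log2 difference of 1 or more, was met by 19 of the 96 genes, and 1.44% of all 2644 expressed genes met it. The rule used this contrast, so the share shows only where the cutoff falls. Among these 19, FBgn0038476 was by far the most abundant, with an mRNA value of 547 in the knockout and 225 in wild type. Its footprint value was 604 in the knockout and 621 in wild type, and with 6149 knockout and 3142 wild-type footprint reads its footprint fold was 0.972 (0.931 to 1.02), beside an mRNA fold of 2.44 (2.32 to 2.57). Here more message stood beside a nearly equal footprint value with a narrow interval.

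Further genes of the 19 showed footprint values near equality. FBgn0028387 had an mRNA value of 33.7 in the knockout and 11.7 in wild type, and a footprint value of 70.7 in the knockout and 65.9 in wild type. FBgn0032524 had an mRNA value of 22.3 in the knockout and 9.72 in wild type, and a footprint value of 29.0 in the knockout and 29.8 in wild type. FBgn0033766 had an mRNA value of 22.4 in the knockout and 10.5 in wild type, and a footprint value of 7.75 in the knockout and 7.31 in wild type. The footprint intervals of all 3 hold equality, at 0.962 to 1.199, 0.759 to 1.25 and 0.850 to 1.33. FBgn0038424 had an mRNA value of 30.1 in the knockout and 14.4 in wild type and a footprint value of 33.2 in the knockout and 31.8 in wild type.

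Other genes among the first 20 had a lower footprint value in the knockout beside a higher mRNA value. FBgn0027592 had an mRNA value of 30.5 in the knockout and 10.9 in wild type, and a footprint value of 79.4 in the knockout and 109 in wild type. Its footprint fold was 0.731 (0.664 to 0.804) on 1062 knockout and 722 wild-type reads. FBgn0034141 had an mRNA value of 32.2 in the knockout and 12.6 in wild type and a footprint value of 13.0 in the knockout and 19.7 in wild type, a footprint fold of 0.661 (0.497 to 0.881). In both genes the footprint interval lies below equality. FBgn0035674 had an mRNA value of 11.0 in the knockout and 3.93 in wild type and a footprint value of 7.74 in the knockout and 9.07 in wild type, and its 67 knockout and 39 wild-type footprint reads gave an interval of 0.567 to 1.30, which holds equality. FBgn0011740, which also carried a high listed m5C level, had an mRNA value of 20.2 in the knockout and 9.62 in wild type and a footprint value of 13.8 in the knockout and 18.9 in wild type, a footprint fold of 0.729 (0.603 to 0.883).

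The remaining genes of the first 20 had footprint values from well above to slightly below wild type. FBgn0052344 had an mRNA value of 53.6 in the knockout and 18.2 in wild type, and a footprint value of 50.1 in the knockout and 40.5 in wild type. FBgn0003330 had an mRNA value of 57.3 in the knockout and 20.7 in wild type, and a footprint value of 41.7 in the knockout and 31.6 in wild type. FBgn0043364 had an mRNA value of 26.6 in the knockout and 12.3 in wild type, and a footprint value of 53.9 in the knockout and 37.4 in wild type. These 3 had footprint intervals above equality, at 1.08 to 1.42, 1.07 to 1.64 and 1.10 to 1.92. FBgn0039000 (mRNA value 8.54 in the knockout and 3.27 in wild type) and FBgn0022153 (18.6 in the knockout and 8.70 in wild type) had footprint folds of 1.11 (0.876 to 1.41) and 0.911 (0.542 to 1.57), which cannot be told from equality at this depth.

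The selection also held some abundant messages. FBgn0010411 had an mRNA value of 1969 in the knockout and 1301 in wild type, and a footprint value of 1040 in the knockout and 1100 in wild type, a footprint fold of 0.945 (0.887 to 1.01). FBgn0032518 had an mRNA value of 1622 in the knockout and 951 in wild type, and a footprint value of 193 in the knockout and 177 in wild type, a footprint fold of 1.09 (0.938 to 1.28). Whole mRNA reads were not recovered for these 2 genes, so their mRNA folds have no interval. Both were the most abundant messages of the selection in each genotype, and their footprint intervals hold equality.

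FBgn0037607 had an mRNA value of 176 in the knockout and 114 in wild type, and the highest knockout footprint value of the 96, at 1093 in the knockout and 802 in wild type. On 12213 knockout and 4454 wild-type footprint reads its footprint fold of 1.36 (1.32 to 1.41) came close to its mRNA fold of 1.54 (1.48 to 1.60). FBgn0259142, with an mRNA value of 143 in the knockout and 90.6 in wild type, had a footprint fold of 1.34 (1.22 to 1.47). In these 2 genes most of the mRNA difference was matched by footprints, although the rule places them with the others. FBgn0034258 had an mRNA value of 139 in the knockout and 71.3 in wild type and a footprint value of 153 in the knockout and 135 in wild type. FBgn0260858 had an mRNA value of 126 in the knockout and 75.1 in wild type and a footprint value of 120 in the knockout and 95.2 in wild type. FBgn0017581 had an mRNA value of 121 in the knockout and 74.5 in wild type and a footprint value of 91.7 in the knockout and 75.03 in wild type, so all 3 had somewhat higher footprints.

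**Figure D2:**
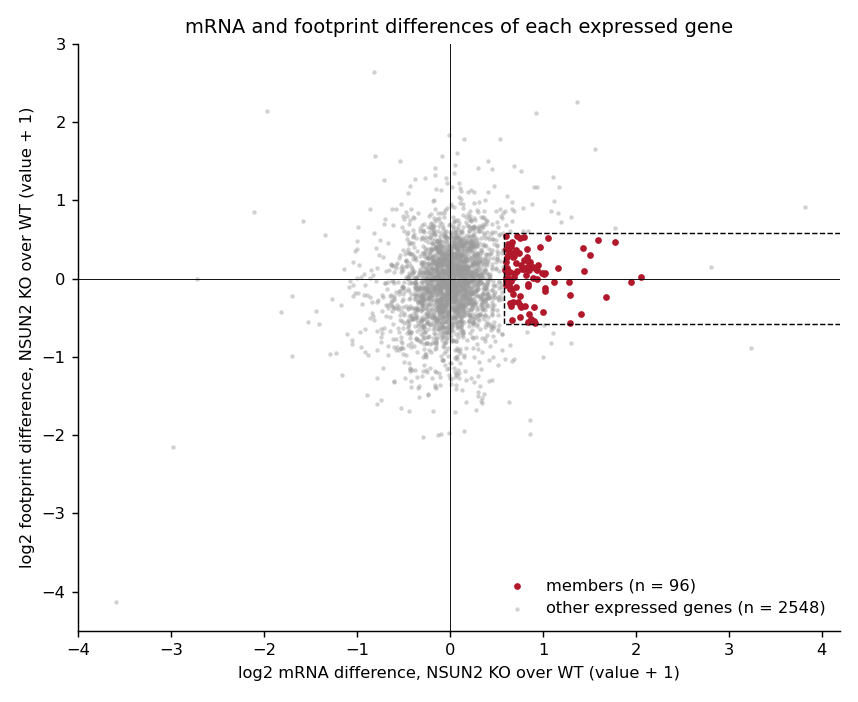
Log2 mRNA difference (horizontal axis) against log2 footprint difference (vertical axis) of the 2644 expressed genes, NSUN2 KO over wild type after adding 1 to each value, with the 96 selected genes in red and the cutoffs of 0.585 dashed. The selected genes fill the box from 0.59 to 2.06 in mRNA and from -0.57 to 0.55 in footprints, with a median of 0.78 in mRNA.

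Over all 96 genes, mRNA values ran from 5.33 to 1969 in the knockout with a median of 27.9, and from 2.08 to 1301 in wild type with a median of 14.3. Footprint values ran from 4.71 to 1093 in the knockout with a median of 28.6, and from 5.46 to 1100 in wild type with a median of 29.2. The log2 mRNA difference had a median of 0.78 and middle quartiles from 0.67 to 0.94, and 33 of the 96 lay below 0.7. The other 2548 expressed genes had a median of -0.01. The log2 footprint difference had a median of 0.08 and middle quartiles from -0.13 to 0.28 in the 96, against a median of -0.05 in the other genes. The footprint value was higher in the knockout in 58 of the 96 and lower in 38, against 1161 of 2548 other genes with a higher value (45.6%). Of the 1985 other genes within the same footprint band, 941 had a higher value (47.4%). The rule used this contrast, and no test was run on the shares.

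Held footprints were the commonest state of genes with more knockout mRNA, and of other genes too. The mRNA cutoff was passed by 140 of the 2644 expressed genes (5.3%), and all the cutoffs by 98 (3.71%). Of the 140, 98 had footprints within the band (70%), 28 had higher footprints (20%) and 14 had lower footprints (10%). Of the other 2504 expressed genes, 79.2% had footprints within the band, 7.67% higher and 13.1% lower. Footprints past the band on the higher side were therefore listed at 20% beside 7.67%. The mRNA and footprint differences share no library, but with 1 library each these shares have no replicate check.

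Counting error bears on how firmly each gene sits in the selection. The mRNA counting interval lay above equality in all 94 of the 96 genes with recovered mRNA reads, and in 35% of all 2569 expressed genes with such reads. The rule used that contrast, and nothing is read from the difference. The interval lay above 1.5-fold in 62 of the 94. In footprints, 95 of the 96 had recovered reads, and the interval held equality in 51 of them. It lay above equality in 28 of the 95 (29.5%), beside 23.8% of expressed genes, and below equality in 16 (16.8%), beside 29.6% of expressed genes. Those shares too follow in part from the band. The footprint interval stayed wholly within 1.5-fold either way in 48 of the 95, reached 1.5-fold higher in 31 and reached 1.5-fold lower in 23. In the genes whose interval crossed an edge, the footprint reads could not place the value inside the band, and 20 of the 95 had fewer than 50 wild-type footprint reads. The whole mRNA interval lay above the whole footprint interval in 70 of 93 genes, beside 25.5% of the expressed genes with reads in both assays. The rule placed each mRNA difference above the footprint difference, so nothing is read from this share.

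**Figure D3:**
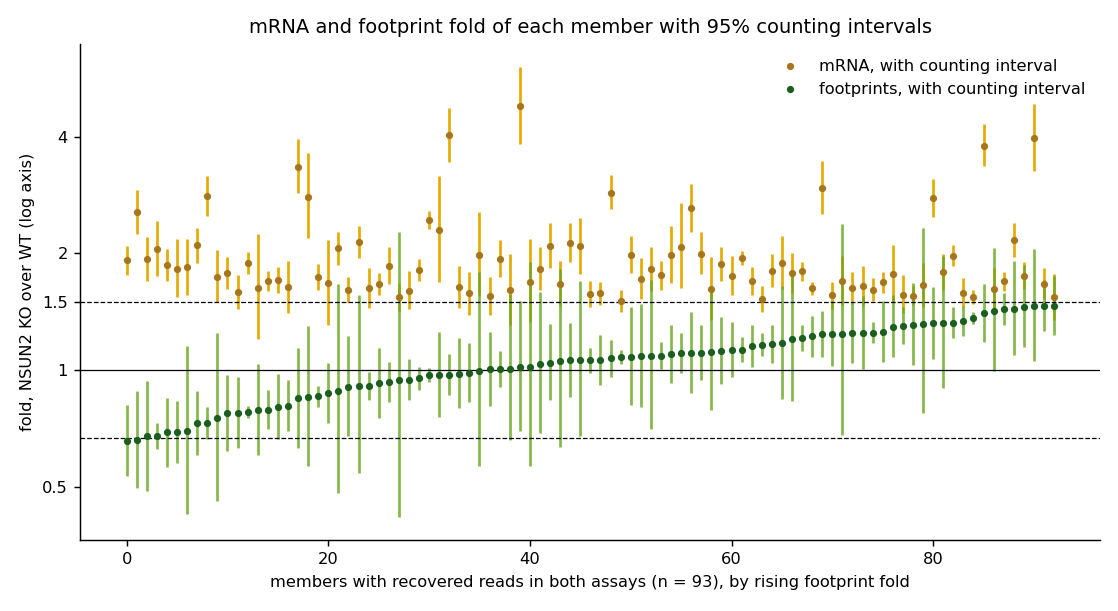
Fold of NSUN2 KO over wild type (log axis) in mRNA and in footprints for the 93 selected genes with recovered reads in both assays, ordered by footprint fold, with 95% counting intervals as vertical lines and 1.5-fold either way dashed. The footprint interval is the wider one on this axis in 73 of the 93 genes, and in 70 of the 93 the whole mRNA interval lies above it. The rule placed each mRNA difference above the footprint difference, so the second count describes the selection.

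Since the rule set a minimum on the mRNA difference and capped the footprint difference at the same size, footprints per message were lower in the knockout for each of the 96 by construction. The log2 difference in footprints per mRNA had a median of -0.76 and ran from -2.03 in FBgn0036266 to -0.05 in FBgn0039019, beside a median of -0.03 in the other expressed genes. It was at least 2-fold lower in 30 of the 96 (31.25%), and in 5.64% of the expressed genes. FBgn0039019 shows how little the rule can ask for: its mRNA value was 37.5 in the knockout and 24.4 in wild type, and its footprint value was 121 in the knockout and 82.3 in wild type, so message and footprints were higher by much the same factor.

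The ribosome load of these genes was then read in each genotype by itself. In the knockout, log2 footprints per mRNA had a median of 0.05 in the 96 genes and -0.11 in the other expressed genes. In wild type it had a median of 0.95 in the 96 and -0.12 in the others. Footprint values exceeded mRNA values in 49 of the 96 in the knockout and in 73 of the 96 in wild type, against 1199 and 1202 of the 2548 other genes, and 24 of the 96 did so in wild type and not in the knockout. The 4 values behind these 2 ratios are the ones the rule used, so the levels in both genotypes describe the selection and are no independent result. The order of the 96 by ribosome load was nearly the same in both genotypes, with a Spearman rho of 0.95 across the genes, against 0.92 across the others. Genes are not independent replicates, and the rule bounds how far a gene can move between the genotypes.

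**Figure D4:**
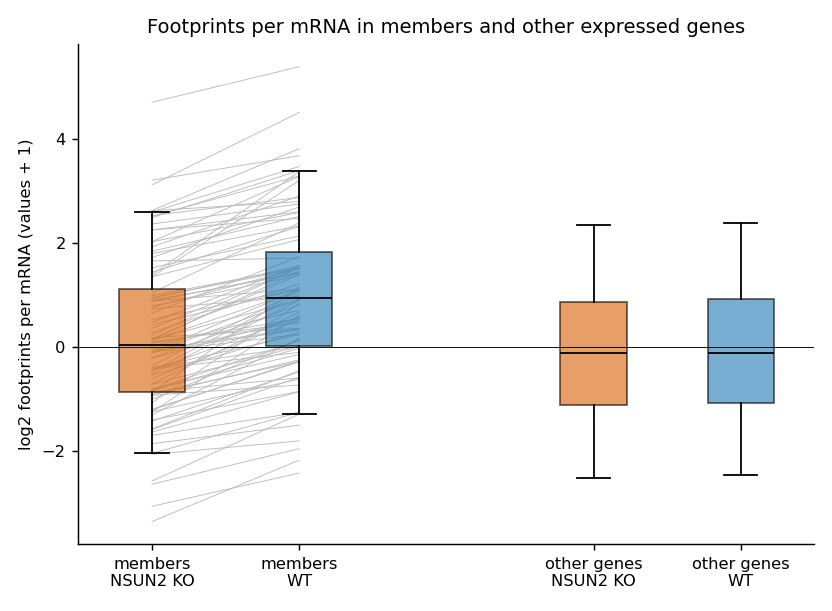
Log2 footprints per mRNA (vertical axis, after adding 1 to each value) in the 96 selected genes and the 2548 other expressed genes, with NSUN2 KO to the left of wild type in each pair. Boxes span the middle quartiles with the median as a line, whiskers reach the percentiles 5 and 95, and gray lines join the 2 values of each selected gene. The medians are 0.05 in the knockout and 0.95 in wild type for the selected genes, and -0.11 and -0.12 for the others.

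Genes with the opposite mRNA difference and held footprints gave the mirror image. Those 81 genes had a median log2 footprints per mRNA of 0.26 in the knockout and -0.60 in wild type, while the 1902 genes within the band in both assays had -0.09 in the knockout and -0.06 in wild type. In both selections the genotype with less message had the higher ratio, as the shared mRNA term requires. The 28 genes with more mRNA and more footprints had 0.13 in the knockout and 0.35 in wild type. The 14 genes with more mRNA and fewer footprints had -1.17 in the knockout and 0.76 in wild type. Their selection also requires a lower ratio in the knockout than in wild type, so nothing is read from these levels.

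The ribosome load differed widely among the 96 genes. FBgn0013343 had the highest, with 31.0 footprint units per mRNA unit in the knockout and 58.3 in wild type. Its mRNA value was 5.33 in the knockout and 2.56 in wild type, and its footprint value was 165 in the knockout and 149 in wild type, so a scarce message carried many footprints. FBgn0003391 had 9.99 in the knockout and 30.3 in wild type, with an mRNA value of 6.09 in the knockout and 2.97 in wild type and a footprint value of 60.8 in the knockout and 90.0 in wild type. Its footprint interval of 0.627 to 0.729 lies below equality. FBgn0031479 had 6.45 in the knockout and 12.4 in wild type, with a footprint value of 88.6 in the knockout and 102 in wild type. FBgn0001986 had 6.09 in the knockout and 10.9 in wild type, with a footprint value of 85.0 in the knockout and 93.2 in wild type.

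Other highly loaded genes had higher mRNA values. FBgn0030520 had an mRNA value of 88.6 in the knockout and 58.7 in wild type, a footprint value of 831 in the knockout and 768 in wild type, and a load of 9.38 in the knockout and 13.1 in wild type. FBgn0260399 had an mRNA value of 58.0 in the knockout and 32.0 in wild type, a footprint value of 332 in the knockout and 348 in wild type, and a load of 5.72 in the knockout and 10.9 in wild type. FBgn0261385 had an mRNA value of 41.1 in the knockout and 25.5 in wild type and a footprint value of 260 in the knockout and 374 in wild type. Of these, only FBgn0030520 had a wild-type mRNA value above the median of the other expressed genes, 36.5. FBgn0031479 and FBgn0001986, named before, had wild-type mRNA values of 8.20 and 8.58. Among the genes named, a high ribosome load in wild type was thus not confined to the scarcest messages. Most lay below that median, and mRNA is the denominator of the load. FBgn0031535, second in mRNA difference, belonged to the same end, at 2.66 in the knockout and 11.0 in wild type.

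At the low end, mRNA values exceeded footprint values in both genotypes. FBgn0032518, described above, had 0.119 footprint units per mRNA unit in the knockout and 0.186 in wild type. FBgn0042092 had an mRNA value of 81.8 in the knockout and 39.7 in wild type but a footprint value of only 7.09 in the knockout and 8.02 in wild type, a load of 0.0866 in the knockout and 0.202 in wild type. FBgn0038401 had a footprint value of 6.45 in the knockout and 6.83 in wild type on 19 knockout and 10 wild-type reads, and its footprint interval ran from 0.418 to 2.27. FBgn0027889 had a load of 0.232 in the knockout and 0.276 in wild type, and FBgn0028895 had 0.251 in the knockout and 0.316 in wild type. These genes were named as the extremes of load, so nothing is read from the distance between them. Over all 96, the middle quartiles of wild-type log2 footprints per mRNA ran from 0.02 to 1.83. In the other expressed genes they ran from -1.07 to 0.92.

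Over the whole selection, the listed m5C level, which took no part in the choice, was close to that of other genes. It is the highest level listed for a gene, given once and identical in all 4 tables, so it does not compare the genotypes. Its median was 0.253 in the 96 genes and 0.269 in the other expressed genes, and the range of the 96, from 0.102 to 0.985, spanned nearly the whole listed range. A level of at least 0.2 was listed for 58 of the 96 (60.4%) and 64.0% of the others, at least 0.4 for 29.2% and 32.8%, and at least 0.6 for 14.6% and 17.6%. The 96 were a little below the others at each level, though the difference of the medians turned positive, to 0.00693, when a value of at least 10 was required in each assay. Below a wild-type mRNA value of 10 the median levels were 0.246 in the selected genes and 0.336 in the others. They were 0.268 and 0.305 from 10 to 20, and 0.185 and 0.277 from 20 to 40. From 40 to 80 they were 0.259 and 0.255, and at 80 and above, with 5 selected genes, 0.467 and 0.232. Across the 96 genes the m5C level had a Spearman rho of -0.05 with the mRNA difference and -0.06 with the footprint difference, against -0.01 and -0.07 across the others. The tables list no gene below a level of 0.1, so genes with less m5C were not analysed here.

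The selected genes with the highest listed m5C levels had footprint values on both sides of the wild-type value. The rule held each footprint difference within its band, and most of their footprint intervals held equality. Whether footprints follow a high m5C level could therefore not be tested in these genes. FBgn0038424 had the highest listed m5C level, at 0.985, with the near-equal footprints given above. FBgn0031479, at 0.937, had one of the highest ribosome loads and a footprint fold of 0.872 (0.731 to 1.04). FBgn0036710, at 0.935, had an mRNA value of 55.0 in the knockout and 31.3 in wild type and a footprint value of 200.4 in the knockout and 184 in wild type. FBgn0028497, at 0.916, had an mRNA value of 24.0 in the knockout and 12.8 in wild type and a footprint value of 24.3 in the knockout and 21.6 in wild type. FBgn0261984, at 0.879, had an mRNA value of 18.9 in the knockout and 9.77 in wild type and a footprint value of 53.2 in the knockout and 52.8 in wild type. FBgn0034365, at 0.857, had a footprint value of 7.68 in the knockout and 10.2 in wild type. The footprint interval of FBgn0011740, at 0.829, lay below equality (0.603 to 0.883), while that of FBgn0032518, at 0.819, held equality (0.938 to 1.28).

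Lengths recovered with the reads gave a further property that did not enter the selection. The footprint values came out scaled by lengths that behave as codons and the mRNA values by lengths that behave as nucleotides, and these units are inferred. The median length behind the footprint values was 564 codons in the 96 genes and 578 in the others. The coding lengths were thus close when pooled, and the difference of -14 codons turned to 51 among genes with at least 50 wild-type footprint reads. Below a wild-type mRNA value of 10 the medians were 792 codons in the selected genes and 1157 in the others. They were 594 and 791 codons from 10 to 20, and 488.5 and 655 from 20 to 40. From 40 to 80 they were 509 and 523 codons, and at 80 and above 407 and 369. The length left over after 3 times the codons was taken off the mRNA length had a median of 436 nt in the 79 selected genes where it was positive, and 758 nt in 2089 other genes. The mRNA length was at least 3 times the codons in 84.4% of the listed genes with both lengths, and genes below that were left out of this comparison. The difference of -322 nt was -179 nt among the 30 genes whose counting intervals lay past the cutoffs and -209 nt among the 75 with at least 50 wild-type footprint reads. Within wild-type mRNA values from 10 to 40, the medians were 369.5 nt in the selected genes and 859 nt in the others. In each of the 5 bands of wild-type mRNA the selected genes had the shorter remainder, from 649.5 against 893 nt below a value of 10 to 508 against 590 nt at 80 and above. By the geometric mean of both mRNA values the lowest and the highest band had the opposite order, at 913 against 877.5 nt and 560 against 552 nt, with 12 and 9 selected genes. A missed factor shortens an inferred length, so the remainder is too short where it was missed in mRNA and too long where it was missed in footprints. Leaving out negative remainders acts on the first case and keeps the second. The share of missed factors in this difference was not tested.

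**Figure D5:**
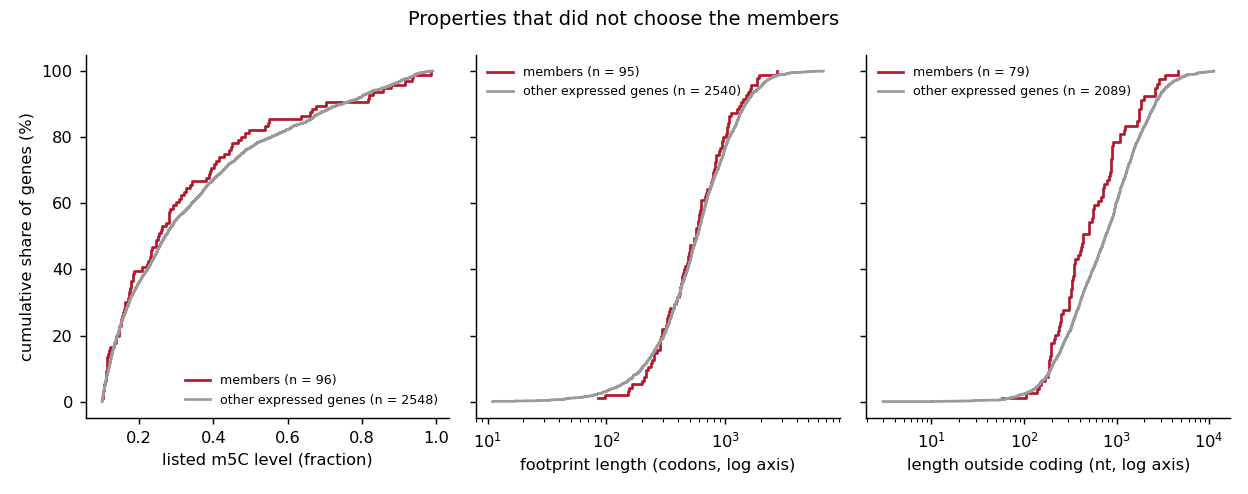
Cumulative share of genes (vertical axis, percent) by listed m5C level, by inferred length behind the footprint values in codons and by inferred mRNA length outside coding in nt, the last 2 on log axes, for the selected genes in red and the other expressed genes in gray. The curves for m5C and coding length run close together, and the curve for length outside coding lies to the left in the selected genes, with medians of 436 nt in the selected and 758 nt in the other genes.

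Selected genes were more frequent among messages that were scarce in wild type. They made up 27 of the 193 genes with a wild-type mRNA value below 10 (13.99%), 7.002% of those from 10 to 20, 2.38% from 20 to 40, 1.86% from 40 to 80 and 1.01% at 80 and above. Wild-type mRNA is the denominator of the selecting difference, so a part of this gradient follows from the choice. Banded by the geometric mean of both mRNA values, which treats the genotypes alike, the shares were 6.90%, 7.92%, 2.53%, 2.47% and 1.86%. The gradient was then flatter, and the 2 bands below 20 still had the higher shares. Scarce messages also have fewer reads, and the part of counting error in this gradient was not tested.

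Genes just inside and just outside each cutoff had similar values. Just inside the mRNA cutoff lay FBgn0030520 with a log2 mRNA difference of 0.59, followed by FBgn0010411 and FBgn0035002 at 0.60. Just outside it lay FBgn0034237 at 0.58, with an mRNA value of 157 in the knockout and 105 in wild type, and FBgn0017566 and FBgn0035252 at 0.57. At the upper edge of the footprint band, FBgn0039019, FBgn0027087 and FBgn0038206 were inside at 0.55, 0.54 and 0.53, and FBgn0085370, FBgn0032246 and FBgn0026361 were outside at 0.61. At the lower edge, FBgn0034697, FBgn0034141 and FBgn0003391 were inside at -0.57, -0.56 and -0.56, and FBgn0005683, FBgn0000212 and FBgn0035825 were outside at -0.59, -0.68 and -0.69.

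The minimum values removed few genes. The mRNA minimum left out 1 gene that met every other cutoff, FBgn0003977, with an mRNA value of 4.27 in the knockout and 1.89 in wild type. The nearest gene inside it was FBgn0013343. The footprint minimum left out 8, of which the nearest to it was FBgn0263831, with an mRNA value of 18.3 in the knockout and 3.22 in wild type and a footprint value of 2.62 in the knockout and 4.35 in wild type. The nearest inside were FBgn0034703, with a footprint value of 4.71 in the knockout and 6.78 in wild type, then FBgn0038401 and FBgn0025519.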

How the data were processed

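The values compared are those of 4 libraries, grouped by the labels' genotype and by assay. The deposited mRNA and footprint values are a signal per gene scaled to depth and length, and the file headers do not name the scaling. The deposited m5C level is a fraction, by the file headers a gene's highest, and the sources used here do not give its assay, sample or coverage. Genome build dm3 and the tools HTSeq, TopHat2 and cutadapt are credited to the submitters' processing notes, and per the labels' protocols the footprints came from micrococcal nuclease digestion, single ribosomes and size selection. How reads with several matches were treated is not given there.

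Log2 differences add 1 to each value, which understates the difference of low values. Folds are ratios of the deposited values. Whole reads were recovered per assay from the ratio of a gene's 2 values, which is a ratio of whole numbers times a constant of 0.497 in footprints and of 0.387 in mRNA. The ratios were reduced to their simplest whole numbers, before any common factor was restored. A constant was kept when the shares of these numbers holding a small factor differed between the libraries by less than 10 percentage points. In footprints, 32.4% of these numbers in the knockout and 34.5% in wild type were multiples of 2. In mRNA the shares were 33.5% and 31.5%. Of 2860 genes, 2848 gave footprint reads and 2785 gave mRNA reads. The step was also run on simulated data, whose outcome is not reported here. The inferred mRNA length was at least 3 times the codons in 84.4% of the 2777 listed genes with both lengths. Genes named above were among the rest, such as FBgn0038476 with 687 nt for 570 codons and FBgn0052344 with 898 nt for 827 codons. Where a common factor was missed, reads and lengths are too low and intervals too wide. The 95% intervals of folds come from an exact Clopper-Pearson interval of the knockout's share of a gene's reads. Only counting error is covered, and copies of 1 molecule were not told apart for want of molecular identifiers. No p-value was computed.

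Members, lists and alternatives were chosen with earlier results of these data known. Named genes are the 20 with the largest mRNA difference, the extremes of knockout mRNA, of ribosome load and of m5C, and the nearest to each cutoff. The tissue markers and gene lists prepared by symbol could not be applied, since 18 of 2860 identifiers were paired with a symbol and 0 of these are in a list, so the tissue label was not checked. Python 3.11.15 with numpy 2.4.6, pandas 2.3.3, scipy 1.17.1 and matplotlib 3.10.9 was used.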

Additional observations from a re-analysis of the deposited data

How the results depend on the processing

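No paired analysis was possible because a group was 1 library. With a 2-fold mRNA cutoff the selection held 19 genes, 100% of them at least 2-fold higher by construction, 1.44% of expressed genes passed, the median log2 difference in footprints per mRNA was -1.21, and the m5C median lay -0.0867 from that of other genes, against -0.0168 as reported. With footprints held within 1.2-fold, 52 genes were left. The m5C difference was positive, at 0.00693, with a minimum value of 10, and at 0.0115 in genes with at least 50 wild-type footprint reads. The alternatives that follow, and that read minimum, were chosen after seeing the data. Where counting intervals had to lie past the cutoffs, 30 genes were left, their wild-type log2 footprints per mRNA stood 1.55 above other genes, against 1.07 as reported, and their coding length was 219.5 codons longer, against -14 as reported. It was 51 codons longer with at least 50 wild-type footprint reads. Within wild-type mRNA values from 10 to 40, the wild-type load stood 0.55 above other genes, the coding length differed by -135 codons and the length outside coding by -489.5 nt, against -322 as reported, and within the same band of the geometric mean by -472 nt. The length outside coding differed by less where counting intervals lay past the cutoffs, at -179 nt, and with at least 50 wild-type footprint reads, at -209 nt. The causes were not tested. The other 71 values over the selection stayed within the binomial interval of the reported value, or within 1.5 times for a number of genes. None of these changed sign, and the coding length difference was 0 codons with a minimum value of 10. Of the differences of single genes, 119 moved by less than their counting interval. The log2 mRNA difference of FBgn0038740, a low gene, was 1.94 with a pseudocount of 0.1, against 1.59 as reported. Depth limits the footprint side most, since 20 of 95 genes had fewer than 50 wild-type footprint reads.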
